A study of Mus musculus with 3 samples.

Results

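Translation initiation factors are the proteins that bring the initiator tRNA, the small ribosomal subunit and a capped mRNA together at the start codon. They were taken as the genes whose symbol begins with Eif and a digit from 1 to 6, on probe sets that the platform annotation assigns to that symbol alone. The choice gave 47 of 18194 genes, measured by 133 of 45101 probe sets. Of the 47 genes, 41 were counted as initiation factors, with 112 probe sets. The other 6 were set apart because they regulate the factors: the 4E-BP genes Eif4ebp1 and Eif4ebp2 and the kinases Eif2ak1 to Eif2ak4. The symbol rule also takes in Eif4a3, a helicase of the exon junction complex, and Eif1ad, an eIF1A-like protein that is not a classical factor.

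The RNA came from C2C12 cells, a mouse myoblast line, in which a short hairpin RNA was directed against FoxO1, FoxO3 or FoxO4, transcription factors held in check by insulin and Akt signalling. All 3 lines were kept in DMEM with puromycin, and each was a colony picked for the strongest loss of its target, so the hairpin and the clone cannot be told apart. There was 1 Affymetrix array per line and no replicate, so no test could be made and every difference below is given by its size. Foxo1 itself gave a higher signal on the FoxO1-labelled array, 1749 against 495 and 965 on the FoxO3- and FoxO4-labelled arrays. In the authors' deposited table its log2 ratio to control RNAi was 1.25. In the same order of arrays, Foxo3 read 1357, 1047 and 386, and Foxo4 read 581, 237 and 248. The brightest Foxo3 probe set read 1357, 1047 and 1016. The brighter Foxo4 probe set was lowest on the FoxO4-labelled array, at 1799, 345 and 80.4, and the other was highest there. Each array is therefore named by its label and not as a known knockdown. The 3' to 5' signal ratio of Actb, a measure of RNA integrity, was 6.31, 5.50 and 3.45 on the 3 arrays, and that of Gapdh was 5.0, 5.90 and 2.23. Of 7 myoblast markers, 6, 6 and 4 lay above the median of these arrays, with Pax7 below it on all 3. Of 6 markers of differentiated muscle, 6, 5 and 3 did, with summed signals of 11443, 5863 and 3131. Of 5 fibroblast markers, 3 did on each array, with summed signals of 206173, 32282 and 74294, and of 4 markers of other cell types, 2, 1 and 2 did, with 0, 2 and 1 of them at the floor. What part these differences have in the values below was not tested. Where 3 signals follow each other below, they stand in the order FoxO1, FoxO3, FoxO4 of these labels.

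As background, initiation runs through a few assemblies. The eIF4F complex joins the cap-binding protein eIF4E, the helicase eIF4A and the scaffold eIF4G, and 4E-BP proteins block it by occupying eIF4E until mTOR phosphorylates them. The eIF2 complex delivers the initiator tRNA as a GTP-bound carrier, eIF2B recharges it, and the 4 eIF2 kinases stop that exchange under stress. eIF3 is a large scaffold on the small subunit, eIF5 triggers GTP hydrolysis, eIF5B joins the subunits, and eIF5A, which carries hypusine, helps elongation and termination.

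A gene's signal is the median over its probe sets of the log2 signal, after signals below the 20th percentile of an array were raised to it (floors of 81.2, 73.1 and 77.3 on the 3 arrays). It is printed on the linear scale, and a difference is in log2 units, so that 1 stands for 2-fold. Signals of different genes come from different probes and are not set against each other.

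The factors as a set sat a little lower on the FoxO1-labelled array than on the other arrays. The median log2 difference over the 41 factors was -0.39 for FoxO1 minus FoxO3, beside 0.14 over all genes. It was -0.12 for FoxO1 minus FoxO4, beside 0.07, and 0.10 for FoxO3 minus FoxO4, beside -0.08. With plain probe sets only (identifiers without a cross-hybridization or transcript-family suffix, 32 factors) they were -0.02, 0.03 and -0.08, so the last 2 changed sign. The medians over all genes under that setting were 0.15, 0.07 and -0.08. The 3 pairs share arrays and are not separate evidence. On the FoxO1-labelled array, 22 of the 41 factors (53.7%) had their lowest signal of the 3 arrays, where 28.3% of all genes did and 36.0% of those in the upper 25% by signal. The FoxO3-labelled array was lowest for 9 and the FoxO4-labelled array for 10 factors, where 39.2% and 32.5% of all genes were. These counts depend on the scaling. Under quantile normalization Eif2b2, Eif3c, Eif3f, Eif3i and Eif3k were no longer lowest on the FoxO1-labelled array, and Eif2s3y became so. Centring each array on its median added Eif2s3y, Eif3b and Eif4g2.

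For FoxO1 minus FoxO3, 9 of 41 were at least 2-fold lower (background over all genes 17.4%) and 3 at least 2-fold higher (background 21.3%). With each array centred on its median these counts became 11 (background 22.6% under that scaling) and 1 (background 16.6%), and the median over all genes moved from 0.14 to -0.11. For FoxO1 minus FoxO4, 7 were lower (background 16.9%) and 4 higher (background 20.4%), or 9 (background 21.2%) and 2 (background 16.5%) after centring, where the median over all genes moved from 0.07 to -0.14. For FoxO3 minus FoxO4, 5 were higher (background 17.9%) and 4 lower (background 18.6%). In all, 18 factors were at least 2-fold apart in at least 1 pair (background 61.3%) and 23 in none. On the FoxO3-labelled array, Eif2s3y and Eif3b were at least 2-fold higher than on both others (background 7.61%), and Eif3d and Eif4e3 at least 2-fold lower (background 9.51%). On the FoxO4-labelled array, Eif3a and Eif4a3 were at least 2-fold higher than on both others (background 7.13%), and Eif1ad, Eif2b5 and Eif4g3 at least 2-fold lower (background 8.88%). Most factors are bright: 28 of 41 lay in the upper 25% of genes by signal. Of those 28, 6 were lower (background 12.9% of genes that bright) and 1 higher (background 10.8%) for FoxO1 minus FoxO3, and 4 lower (background 10%) and 1 higher (background 8.57%) for FoxO1 minus FoxO4. For FoxO3 minus FoxO4, 2 of the 28 were higher (background 11.2%) and 2 lower (background 11.8%).

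**Figure D1:**
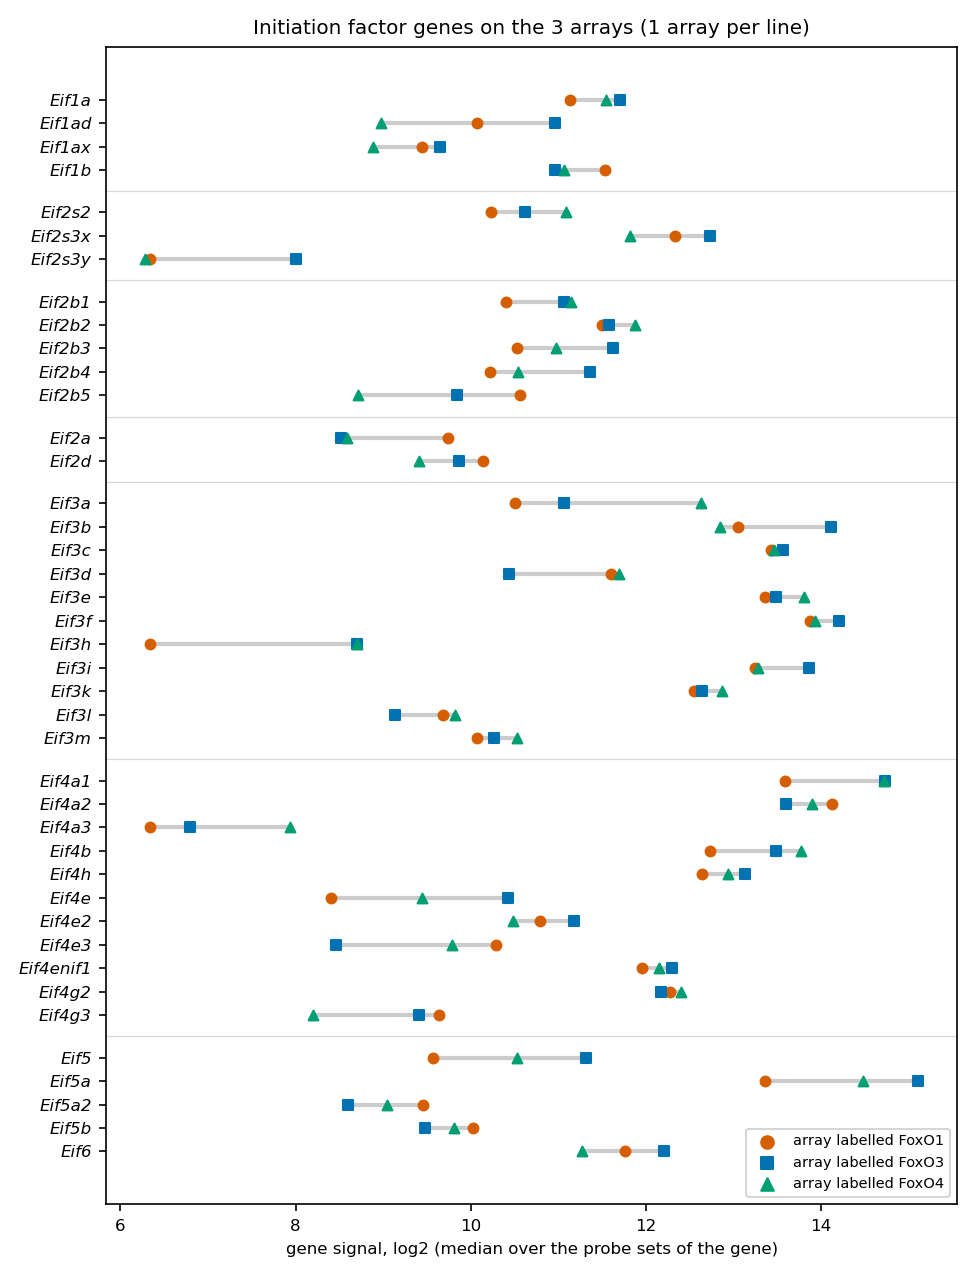
Log2 signal of the 41 initiation factor genes (rows, grouped by complex) on arrays for FoxO1 (circles), FoxO3 (squares) and FoxO4 (triangles), 1 array per line. The grey bar spans the 3 values of a gene, and positions of different genes are not comparable. The circle is leftmost for 22 genes, and the widest bars belong to Eif3h, Eif3a and Eif4e.

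In eIF4F, the signals of Eif4a1 and Eif4e were lowest on the FoxO1-labelled array. Eif4a1, the main cytosolic eIF4A helicase, gave 12341 on the FoxO1-labelled array, 27266 on the FoxO3-labelled array and 26982 on the FoxO4-labelled array. The last 2 arrays were alike, and the first lay at -1.14 and -1.13 against them. All 3 Eif4a1 probe sets were lower on the FoxO1-labelled array than on both others, by between -0.18 and -2.64, and the brightest alone gave -0.82 and -0.18. Eif4a2, its close paralogue, went the other way within a narrow range, at 17746, 12427 and 15237 from 1 probe set, with differences of 0.51 and 0.22. Eif4a3 had its own probe set close to the floor, at 81.2 (the floor), 110.3 and 245, while a probe set it shares with the locus Gm5576 read 7013, 10204 and 12123.

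Eif4e, which binds the cap, gave 339, 1374 and 693 on the 3 arrays. The FoxO1-labelled array was lowest and the FoxO3-labelled array highest, with differences of -2.02 for FoxO1 minus FoxO3, -1.03 for FoxO1 minus FoxO4 and 0.99 for FoxO3 minus FoxO4. The gene value mixes 2 bright and 2 dim probe sets. The bright pair read 1726, 3551 and 3331, and 1413, 3163 and 1873, while the dim pair lay below the floor on the FoxO1-labelled array. With the brightest probe set the Eif4e differences were -1.04, -0.95 and 0.09.

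Eif4e2, a cap-binding relative that represses bound mRNAs, stayed within 2-fold in each pair by its gene value, at 1772, 2320 and 1428.5. Its 5 probe sets did not agree. Its 2 brightest, at 2500.1, 3920 and 3401 and at 1772, 4695 and 2940, had the array order of Eif4e, and the second gave -1.41 for FoxO1 minus FoxO3. Eif4e3, an atypical cap-binding relative, read 1251, 352 and 887, so the FoxO3-labelled array was lowest, at 1.83 for FoxO1 minus FoxO3. That rests on 1 probe set at 916, 56.2 and 350, since the brighter Eif4e3 probe set read 1708, 1697 and 2245. Eif4enif1, which carries eIF4E into the nucleus, was level at 3970.4, 5034 and 4538.

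Of the eIF4G scaffolds, Eif4g1 had no probe set of its symbol alone and was not analysed. Eif4g2, a relative that lacks the cap-binding partner site, was within 2-fold at 4967, 4608 and 5412. Its brightest probe set read 21691, 37467 and 24724, at -0.79 for FoxO1 minus FoxO3. Eif4g3 read 795, 679 and 294, at 1.44 for FoxO1 minus FoxO4, yet its brightest probe set gave -0.18 there, from 2972, 2585 and 3355. Of the helicase helpers, Eif4b read 6816, 11472 and 14011, lowest on the FoxO1-labelled array at -0.75 and -1.04. All 3 Eif4b probe sets were lower there than on the FoxO4-labelled array, but the brightest by only -0.05. Eif4h, a related cofactor, differed by less than 2-fold at 6379, 8937 and 7858.

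**Figure D2:**
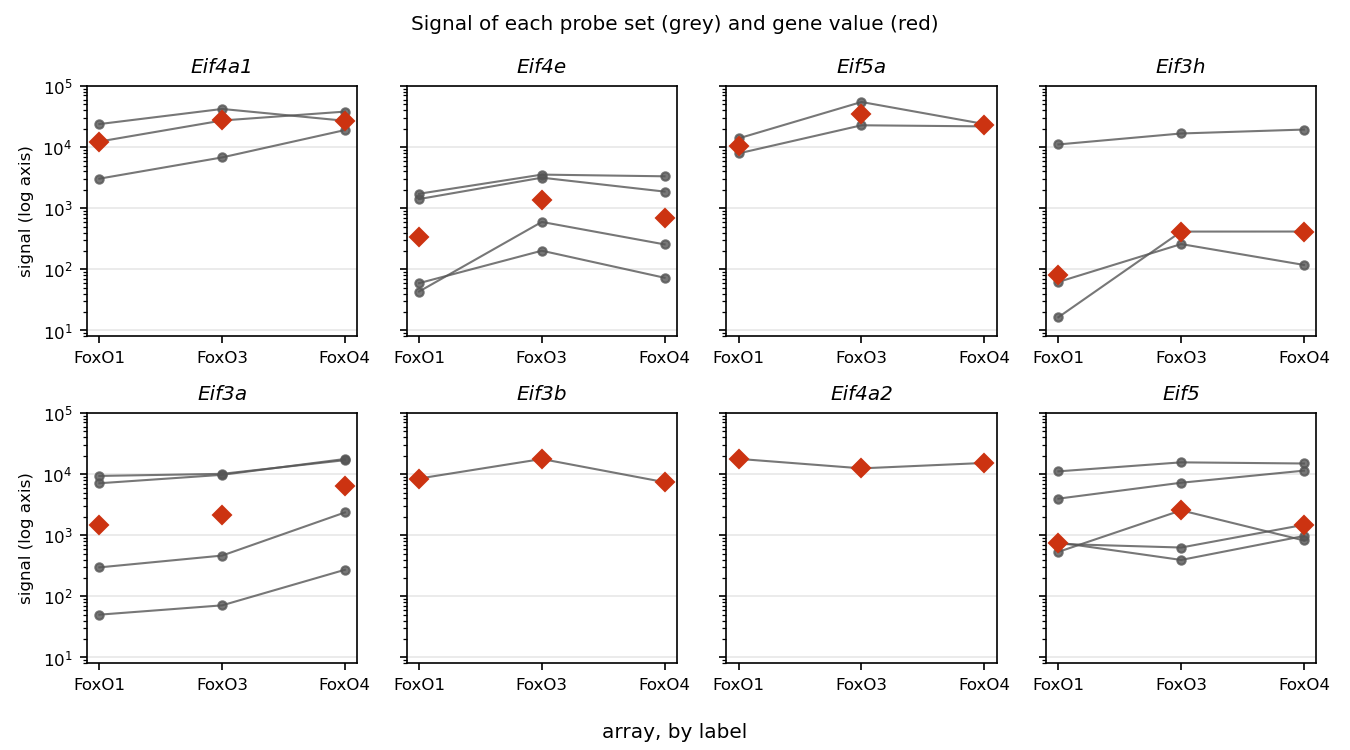
Signal of every probe set (grey lines, log axis) of 8 initiation factor genes on the 3 arrays, with the gene value in red. The lines of Eif4a1, Eif4e, Eif5a and Eif3h are lowest at the FoxO1-labelled array, those of Eif3a are highest at the FoxO4-labelled array, and Eif4a2 and Eif3b have 1 probe set each.

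Among the eIF5, eIF5A, eIF5B and eIF6 genes, Eif5a was the only member past 2-fold against both other arrays. It read 10489 on the FoxO1-labelled array, 35299 on the FoxO3-labelled array and 22841 on the FoxO4-labelled array, or -1.75 and -1.12 for the first against the others. Both Eif5a probe sets had this order of lowest and highest array, at 7904, 22761 and 21846 and at 13919, 54744 and 23882. The brighter gave -1.98 and -0.78, the second under 2-fold. Eif5a2, the paralogue of Eif5a, had its highest value on the FoxO1-labelled array, at 700.4, 388 and 526. Of the enzymes that make hypusine on eIF5A, Dhps read 1135, 2587 and 1219, and Dohh 1304, 584 and 1089.8, the latter with 1 of 2 probe sets at the floor on the FoxO3-labelled array. By their brightest probe sets both were highest on that array, at 1682, 3536 and 1261 for Dhps and at 2535, 4670 and 2853 for Dohh.

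Eif5, which promotes GTP hydrolysis by eIF2, read 761, 2556 and 1482, at -1.75 for FoxO1 minus FoxO3 and -0.96 for FoxO1 minus FoxO4. Its 5 probe sets were of opposite sign in the first pair, and the brightest gave -0.49 and -0.43. Eif6, an anti-association factor of the large subunit, was under 2-fold apart in each pair at 3464, 4747 and 2465. The brighter of its 2 probe sets gave -1.50 for FoxO1 minus FoxO3. Eif5b was level at 1038, 714 and 895.

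Eif4a1, Eif4e, Eif5a and Eif3h were the 4 factors at least 2-fold lower on the FoxO1-labelled array than on both other arrays. They make up 9.76% of the factors, near the background of 7.94%. By the brightest probe set none of them was 2-fold lower than both, with FoxO1 minus FoxO4 at -0.18, -0.95, -0.78 and -0.81. Eif2a was the 1 factor at least 2-fold higher than both (background 10.2%). The 250 bases before a RefSeq transcript start are shown for Eif4a1, Eif4e and Eif5a. They are also shown for the Eif4a1 paralogue Eif4a2, which was not lower on the FoxO1-labelled array. Eif3h had no listed sequence. The sequences are those of RefSeq on build GRCm38.p6, written 5′ to 3′ on the gene's strand, with each CACGTG in capitals. These letters are the E-box bound by Myc and related factors.
Eif4a1, chr11:69672424-69672673, minus strand: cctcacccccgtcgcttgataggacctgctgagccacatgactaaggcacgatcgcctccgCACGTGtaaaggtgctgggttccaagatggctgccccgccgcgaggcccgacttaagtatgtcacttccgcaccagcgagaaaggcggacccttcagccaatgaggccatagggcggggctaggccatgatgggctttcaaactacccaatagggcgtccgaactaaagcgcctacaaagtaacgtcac
Eif4e, chr3:138527018-138527267, plus strand: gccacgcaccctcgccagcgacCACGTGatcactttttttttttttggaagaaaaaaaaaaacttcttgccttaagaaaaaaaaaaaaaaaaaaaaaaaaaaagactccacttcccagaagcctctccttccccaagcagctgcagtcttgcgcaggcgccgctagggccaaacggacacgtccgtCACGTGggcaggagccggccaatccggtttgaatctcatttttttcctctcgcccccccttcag
Eif5a, chr11:69921387-69921636, minus strand: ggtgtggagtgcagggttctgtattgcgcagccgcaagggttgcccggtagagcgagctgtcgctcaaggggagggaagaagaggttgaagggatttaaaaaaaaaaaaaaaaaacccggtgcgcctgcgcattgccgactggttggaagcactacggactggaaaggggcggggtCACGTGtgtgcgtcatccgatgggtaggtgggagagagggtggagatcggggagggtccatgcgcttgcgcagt
Eif4a2, chr16:23107218-23107467, plus strand: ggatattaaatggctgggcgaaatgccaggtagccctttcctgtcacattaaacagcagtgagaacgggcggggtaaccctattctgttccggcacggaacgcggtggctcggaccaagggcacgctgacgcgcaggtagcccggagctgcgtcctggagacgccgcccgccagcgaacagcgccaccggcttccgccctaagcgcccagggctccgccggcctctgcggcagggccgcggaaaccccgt

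The first base of CACGTG lay 189 bases before the Eif4a1 start, 228 and 64 bases before the Eif4e start, and 74 bases before the Eif5a start shown. Eif4e has 2 listed starts, of which 1 holds the letters, and Eif5a has 6, of which 3 do, so the window shown was picked for holding them. The only Eif4a2 window held none. Over windows of the same length, 8 of 33 factors with a listed sequence (24.2%) held CACGTG, where 6.86% of 27025 genes did. The motif reads the same on both strands. The 8 were Eif1b, Eif3f, Eif3k, Eif4a1, Eif4e, Eif4h, Eif5a and Eif5a2. Their signals did not share a direction: FoxO1 minus FoxO3 ran from -2.02 for Eif4e to 0.85 for Eif5a2, with a median of -0.41 beside -0.34 over the 25 factors without the letters. For FoxO1 minus FoxO4 the medians were -0.31 and -0.04, with ranges of -1.13 to 0.47 and -2.12 to 1.85. The letters GTAAACA, the core that FoxO proteins bind, searched on both strands, stood before 1 of the 33 factors, Eif2s3y (3.03%), and before 3.54% of all genes. A match describes letters in a window and not a bound site.

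Most eIF3 genes were within 2-fold. Of the 11 subunits with a probe set of their symbol alone, 2 were at least 2-fold lower and 1 higher for FoxO1 minus FoxO3. For FoxO1 minus FoxO4, 2 were lower and 0 higher, and for FoxO3 minus FoxO4, 1 was higher and 2 lower. The backgrounds of the 3 pairs are 17.4% lower and 21.3% higher, 16.9% and 20.4%, and 18.6% and 17.9%, near these shares or above them. The FoxO1-labelled array was lowest for 8 of the 11 (72.7%), beside 28.3% of all genes and 36.0% of the upper 25% by signal. Some of these margins were small and changed with the scaling. Under quantile normalization Eif3c, Eif3f and Eif3i gave 0.08, 0.06 and 0.04 for FoxO1 minus FoxO4, and Eif3k 0.01 for FoxO1 minus FoxO3. They were then not lowest on that array, while with arrays centred on their median Eif3b also was, at -0.02 for FoxO1 minus FoxO4. Eif3c, Eif3e, Eif3f, Eif3i and Eif3k, subunits of the core and its arms, had gene signals of 5990.1 or more on every array. In each pair of arrays these gene values differed by at most 0.61 on the log2 scale in size. The brightest Eif3e probe set read 16887, 13124 and 31635, at -1.27 for FoxO3 minus FoxO4. Those of Eif3c, Eif3f, Eif3i and Eif3k stayed within 2-fold.

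Eif3a, the largest subunit and the base of the complex, read 1454, 2128 and 6317, and so was highest on the FoxO4-labelled array at -2.12 and -1.57 for the other arrays against it. All 4 Eif3a probe sets had that array highest. The 2 brightest, at 9340.3, 10106 and 16914 and at 7090.0, 9741 and 17674, gave smaller gaps, -0.86 and -0.74 for the brightest. Eif3b, its partner in the core, read 8466, 17684 and 7387 from 1 probe set, highest on the FoxO3-labelled array by 1.06 and 1.26.

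Eif3h showed the largest difference of any factor but at a low signal. Its gene value was at the floor on the FoxO1-labelled array, 81.2, and 415 and 416 on the others, or -2.35 and -2.36. The probe set that reads Eif3h brightly gave 11066, 16718 and 19379, the same order of arrays with differences of -0.60 and -0.81. Eif3d, which can itself bind caps, read 3097, 1393 and 3297, at 1.15 for FoxO1 minus FoxO3. Its bright probe set read 20131, 26551 and 24367, with -0.40 for that pair, so the gene value rests on a dim probe set that lay below the floor on the FoxO3-labelled array. Eif3l and Eif3m stayed within 2-fold by their gene values. The brighter of the 2 Eif3m probe sets read 1449, 2456 and 4471, at -1.63 for FoxO1 minus FoxO4, and the other, at 794.5, 614.5 and 488, went the other way.

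**Figure D3:**
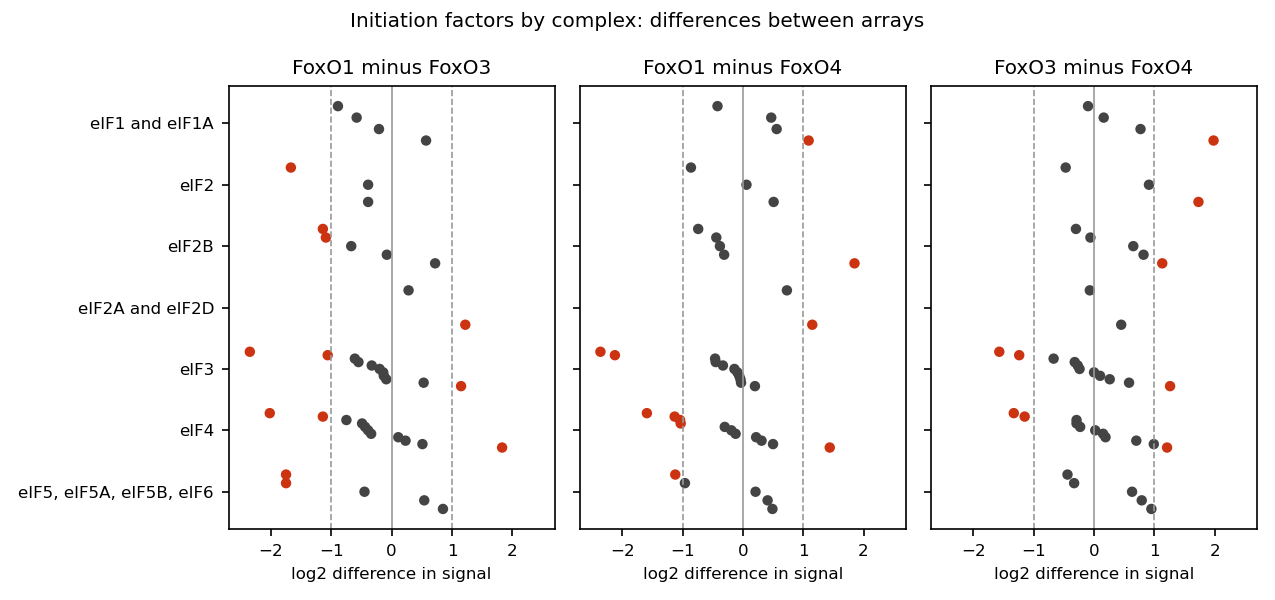
Log2 difference in gene signal for each pair of arrays (panels), with 1 point per initiation factor, by complex. Dashed lines mark 2-fold and red points lie past it. FoxO1 minus FoxO3 has 9 points past the left line and 3 past the right, FoxO1 minus FoxO4 has 7 and 4, and FoxO3 minus FoxO4 has 4 and 5.

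Of the 3 eIF2 genes analysed here, 2 were within 2-fold in each pair. Eif2s1 had no probe set of its symbol alone and was not analysed. Eif2s2, the beta subunit, read 1202, 1576 and 2178, and Eif2s3x, the X-linked gamma subunit, 5156, 6771 and 3608. By these gene values the order of the arrays differed. With the brightest probe set it was shared, at 12210, 16220 and 20873 for Eif2s2 and at 6251, 8739 and 12107 for Eif2s3x, lowest on the FoxO1-labelled array and within 2-fold in each pair. Eif2s3y, the Y-linked gamma subunit, was at the floor of 81.2 on the FoxO1-labelled array, at 258 on the FoxO3-labelled array and at 77.7 on the FoxO4-labelled array, beside a floor of 77.3. Its difference of -1.67 for FoxO1 minus FoxO3 therefore compares a dim signal with a floor.

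Of the 5 eIF2B genes, 4 had their lowest value on the FoxO1-labelled array, beside 28.3% of all genes. Of these, Eif2b2 was lowest by only -0.08 at 2899, 3061 and 3769, and its brightest probe set was highest there, at 13244, 9524 and 8724. Eif2b3 read 1479, 3146 and 2008 and Eif2b4 read 1197, 2630.1 and 1486, both from 1 probe set, at -1.09 and -1.14 for FoxO1 minus FoxO3. Eif2b5, the catalytic subunit, went the other way at 1509.6, 915 and 419.5, with 1.85 for FoxO1 minus FoxO4 and 1.13 for FoxO3 minus FoxO4. Its brighter probe set read 3008, 4059 and 1877, which keeps 1.11 for the second and gives 0.68 for the first. Eif2b1 and Eif2b2 stayed within 2-fold.

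Eif2a, an alternative carrier of initiator tRNA, read 858, 368 and 386, at 1.22 and 1.15 for the FoxO1-labelled array against the others, but its brightest probe set read 2166, 1827 and 2032, or 0.25 and 0.09. Eif2d was within 2-fold. Of the eIF1 and eIF1A genes, which scan for the start codon, Eif1a, Eif1ax and Eif1b were within 2-fold in each pair. Eif1ad read 1075, 1987.5 and 503, the largest FoxO3 minus FoxO4 difference at 1.98. Its 2 probe sets, at 607, 2831 and 1449.8 and at 1905, 1395 and 175, disagreed about FoxO1 against both other arrays.

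Of the 4E-BP genes, Eif4ebp1 gave 6311 on the FoxO1-labelled array, 12290.0 on the FoxO3-labelled array and 6962 on the FoxO4-labelled array. The FoxO3-labelled array was highest, by 0.96 and 0.82, under 2-fold, and the order of the arrays was that of the Eif4e gene value. The 2 bright Eif4ebp1 probe sets had that array highest, at 6311, 18809 and 6962 and at 10078, 12290.0 and 8301, while the dim one, at 784, 490.5 and 1050.0, had it lowest.

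Eif4ebp2 had gene values of 349, 107 and 552, which places the FoxO3-labelled array lowest, at 1.71 for FoxO1 minus FoxO3 and -2.37 for FoxO3 minus FoxO4. Its brightest probe set gave the reverse, 2306, 3996 and 1225, with -0.79 and 1.71. Of its 5 probe sets, 2 were at or below the floor on the FoxO3-labelled array. No direction is therefore given for Eif4ebp2. Eif4ebp3 shares its probe set with Ankhd1 and is not analysed here.

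The eIF2 kinases sense haem loss or mitochondrial stress (Eif2ak1), double-stranded RNA (Eif2ak2), unfolded proteins in the endoplasmic reticulum (Eif2ak3) and amino acid shortage (Eif2ak4). Their gene values differed by at least 2-fold in 1 of 4 genes for FoxO1 minus FoxO3 and in 3 of 4 for FoxO1 minus FoxO4, each lower on the FoxO1-labelled array (background 17.4% and 16.9%). Of the 4 kinases, 0 were at least 2-fold lower in either pair by the brightest probe set, and Eif2ak2 was at least 2-fold higher for FoxO1 minus FoxO4. Eif2ak1 read 152, 622 and 428, at -2.04 and -1.50. Its 2 brightest probe sets, at 1133, 1022 and 874 and at 1082, 1112 and 456, did not show this, and the brightest gave 0.15 and 0.37.

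Eif2ak2, which interferon induces, stayed within 2-fold by its gene value at 439, 322 and 243.5. Its brightest probe set read 586, 922.5 and 243.5, or 1.27 for FoxO1 minus FoxO4 and 1.92 for FoxO3 minus FoxO4. For Eif2ak3 the gene value was 93.6, 73.1 (the floor) and 270.5, highest on the FoxO4-labelled array, but the probe set that reads it brightly was level at 3128, 2850.0 and 3274. Eif2ak4 read 225, 364 and 627, with the FoxO1-labelled array lowest in both of its probe sets, at -0.69 and -1.48 by the gene value and at -0.81 and -0.62 by the brighter probe set. Atf4, whose translation rises when eIF2 is phosphorylated, gave 7593, 17283 and 8419, or -1.19 for FoxO1 minus FoxO3 and 1.04 for FoxO3 minus FoxO4. Its brightest probe set gave -0.91 and 0.83, both under 2-fold. Another of the 3 Atf4 probe sets went the other way for FoxO1 minus FoxO3, at 3.85.

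**Figure D4:**
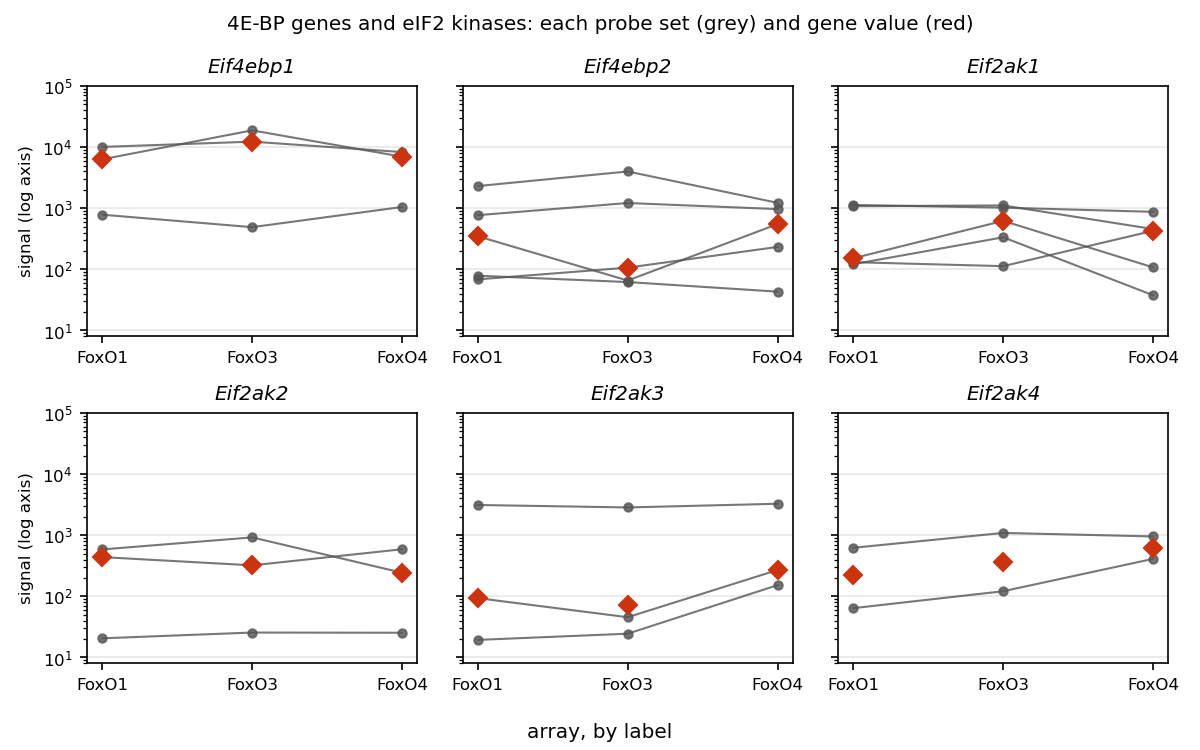
Signal of every probe set (grey lines, log axis) of the 2 4E-BP genes and the 4 eIF2 kinases on the 3 arrays, with the gene value in red. The bright lines of Eif4ebp1 peak at the FoxO3-labelled array, the brightest line of Eif2ak3 stays between 2850.0 and 3274, and the lines of Eif4ebp2 and Eif2ak1 cross.

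Probe sets of a gene were the only repeat measurement. Pooled over the factors, the probe set differences spread less where the signal was high. That spread also holds differences between genes, and the spread within a gene was not calculated. Of 31 factors with at least 2 probe sets, all probe sets went 1 way in 11 for FoxO1 minus FoxO3, 12 for FoxO1 minus FoxO4 and 10 for FoxO3 minus FoxO4. In the first pair Eif1a, Eif2s3y, Eif3h, Eif3i, Eif4a1, Eif4e and Eif5a were lower in all of theirs, and Eif2a, Eif2d, Eif4e3 and Eif5a2 higher. How often this holds over all genes was not calculated, so the counts are not read as agreement beyond the background. The 47 factor probe sets in the brightest 10%, from 26 genes, had a pooled standard deviation of 0.54 for FoxO1 minus FoxO3. The other 65, from 33 genes, had 1.37. In the bright set 40 of 47 (85.1%) were below 0 for FoxO1 minus FoxO3, with a median of -0.41, and 35 of 47 (74.5%) for FoxO1 minus FoxO4, with a median of -0.33. Over all 4511 probe sets that bright, 56.5% and 55.2% were below 0, with medians of -0.12 and -0.08. Each of these bright differences came from the same 3 arrays, and probe sets of a gene are not independent.

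With the brightest probe set for each gene, 0 of 41 factors were at least 2-fold higher for FoxO1 minus FoxO3 (background 20.8%) and 8 lower (background 18.1%), and the median was -0.41 beside 0.12 over all genes. For FoxO1 minus FoxO4, 1 was higher (background 20.1%) and 3 lower (background 16.4%), and for FoxO3 minus FoxO4, 5 were higher (background 18.9%) and 2 lower (background 18.3%). The FoxO1-labelled array was then lowest for 24 of 41 factors (58.5%, background 28.5%). For genes in the upper 25% by that probe set it was lowest for 20 of 33 factors, beside 34.8% of 4549 genes.

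The authors' deposited table gives the log2 ratio of the line labelled FoxO1 to a control RNAi array, which shares the FoxO1 array with the pairs above. In the authors' deposited table the gene ratio was at least 2-fold lower for 10 of 41 factors (background 17.1%) and at least 2-fold higher for 3 (background 18.8%), with a median of -0.65 beside 0.0 over all genes. Muscle markers were also lower in the authors' deposited table: 6 of 6 of differentiated muscle were at least 2-fold lower, with a median of -3.50. Of myoblast markers in the authors' deposited table, 7 of 7 were below 0, with a median of -1.05. The 5 fibroblast markers in the authors' deposited table did not share a direction. Col1a1, Col1a2, Thy1 and Pdgfra stood at 3.05, 2.50, 1.20 and 0.70, and Dcn at -3.80. What part these markers have in the factors' ratio was not tested. By the authors' deposited table it was below 0 for 31 of 41 factors (75.6%), where 49.3% of all genes and 53.4% of the upper 25% by signal were. With the brightest probe set, the ratio in the authors' deposited table was below 0 for 35 of 41 factors (85.4%), where 47.6% of all genes and 53.0% of the upper 25% by signal were. The exceptions in the authors' deposited table were Eif4a2 and Eif5 at 0.0, Eif1a at 0.10, Eif4e3 at 0.40, Eif2b5 at 0.60 and Eif5a2 at 1.90. Eif4a1 and Eif5a had gene ratios of -1.30, Eif4e -1.05, Eif3f -1.0, Eif2s2 -1.20 and Eif3h -1.40 in the authors' deposited table. In the authors' deposited table Eif4ebp1 stood at -0.80, Eif4ebp2 at -0.60, and the 4 kinases Eif2ak1 to Eif2ak4 at -1.10, -0.70, -0.30 and -0.35. By the brightest probe set Eif2ak1 stood at 0.30 and Eif2ak4 at 1.10 in the authors' deposited table, both of the opposite sign.

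The change calls in the authors' deposited table went 1 way. Of the 112 factor probe sets, 18 carried a decrease call (16.1%, background 4.21%), 5 a marginal decrease call and 0 an increase call (background 1.26%). Such calls are made more often on bright probe sets: in the brightest 10%, 15 of 47 factor probe sets were called decreased (31.9%), where 20% of all probe sets that bright were, and 0 increased, where 8.56% were. The 15 factors with a decrease call in the authors' deposited table were Eif2d, Eif2s3x, Eif3c, Eif3e, Eif3f, Eif3h, Eif3i, Eif3k, Eif3l, Eif4a1, Eif4b, Eif4e, Eif4g2, Eif4h and Eif5. Of these, 7 are subunits of eIF3. The backgrounds above are shares of probe sets. The share of all genes with a decrease call was not calculated, nor was that of marginal decrease calls, so these gene counts have no background.

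**Figure D5:**
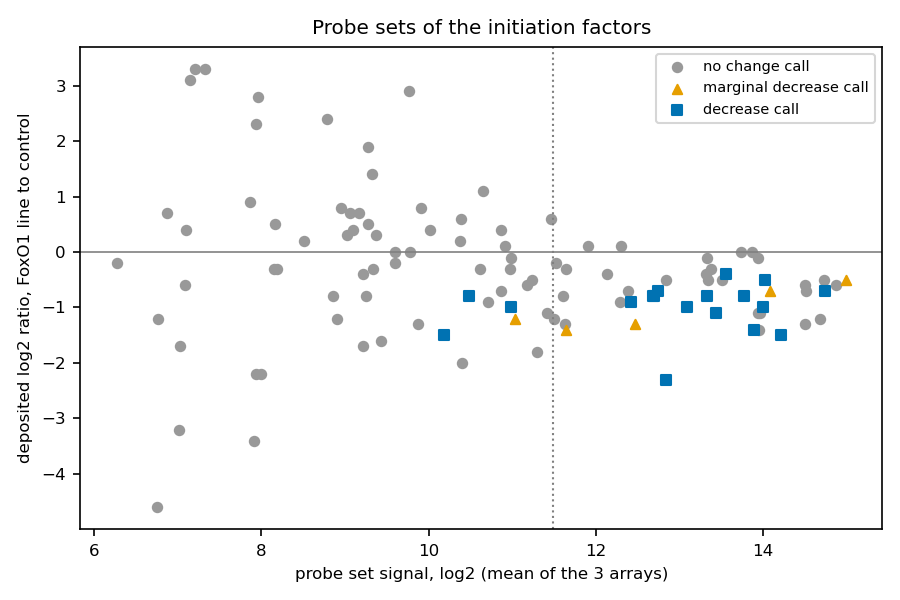
Deposited log2 ratio of the line labelled FoxO1 to control (y axis) against log2 signal averaged over the 3 arrays (x axis) for the 112 probe sets of the initiation factors. The dotted line marks the brightest 10% of all probe sets, where the 47 points lie between -2.30 and 0.10, while dim points spread from -4.60 to 3.30.

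Of 41 genes listed as partners of initiation, elongation, termination and their signalling, 39 were measured. For FoxO1 minus FoxO3, 14 were at least 2-fold lower and 7 higher, beside the backgrounds of 17.4% and 21.3%, with a median of -0.72. For FoxO1 minus FoxO4, 3 were lower (background 16.9%) and 1 higher (background 20.4%), with a median of -0.15. For FoxO3 minus FoxO4, 11 were higher (background 17.9%) and 4 lower (background 18.6%), with a median of 0.41. Abce1, which splits ribosomes for recycling, had the lowest value on the FoxO1-labelled array, at 217 against 1693 and 3108. Larp1, which binds mRNAs with a terminal oligopyrimidine tract, read 4851, 11436 and 6726, and Pabpc4, a poly(A)-binding protein, 3359, 8486 and 5146, both highest on the FoxO3-labelled array. Pdcd4, an inhibitor of eIF4A, was lowest on that array, at 2002, 484.5 and 1622.

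The elongation genes were at 0 of 7 past 2-fold for FoxO1 minus FoxO4 (background 16.9% lower and 20.4% higher). For FoxO1 minus FoxO3, 1 of 7 was lower (background 17.4%), and for FoxO3 minus FoxO4, 2 of 7 were higher (background 17.9%). In the authors' deposited table all of the 7 genes were below 0 (49.3% of all genes) and 4 of 7 at least 2-fold lower (background 17.1%), with a median of -1.0. Eef1a1, which delivers aminoacyl-tRNA, read 214295, 228054 and 311942. Of the kinases that phosphorylate eIF4E, Mknk1 read 980.2, 340.1 and 999.9 and Mknk2 read 1020.5, 2392 and 959.6, so that the FoxO3-labelled array was lowest for the first and highest for the second. By their brightest probe sets both were lowest on the FoxO4-labelled array, at 2272, 1980.0 and 999.9 for Mknk1 and at 9357, 8506 and 3672 for Mknk2. Mtor read 637, 1051 and 192, with 2.45 for FoxO3 minus FoxO4 and 1 of 3 probe sets at the floor on the FoxO4-labelled array. Its brightest probe set read 5960, 4621 and 3558, with 0.38 for that pair.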

How the data were processed

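RNA from 3 C2C12 lines was hybridised to Affymetrix mouse arrays, 1 array per line. The deposited intensity of each probe set came from GCOS, per the submitters' processing notes (version and settings: not given in the sources used here), and its 2% trimmed mean was 1000 on every array. A second deposited table holds, per the file headers, log2 ratios of the lines against control RNAi, rounded to 0.1, and a change call. Across 45101 probe sets the FoxO1 ratio tracked the log2 signal of its array relative to the mean of all 3 (r of 0.58), while those labelled FoxO3 and FoxO4 did not (-0.01 and 0.0), so these 2 columns were not used per probe set.

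Signals were floored at each array's 20th percentile, and a gene's value was the median log2 signal over probe sets with its symbol alone: 34958 probe sets had 1 symbol, 932 several and 9211 none. All 47 members matched RefSeq genes of assembly GRCm38.p6 by Entrez identifier with the same symbol. Another 6 probe sets name an initiation factor or 4E-BP gene beside other genes and were left out. Factors with no probe set of their own symbol are not analysed here. The members, gene lists and the naming rule were chosen with earlier results of these data known. Under that rule values are given for factors past 2-fold with a signal above the array's median, for the furthest factors of each pair, and for all eIF2, eIF4F, 4E-BP and kinase genes; the other factors and pathway genes named with values were chosen as background or as contrast after their values were seen. The summaries by brightness (the upper 25% of genes, the brightest 10% of probe sets) and the count of lowest arrays were added after seeing the data; the other alternatives are those of the closing section. The calculations were tested on simulated data. Array number limits the precision. Tools were Python 3.11.15 with pandas 2.3.3, numpy 2.4.6, matplotlib 3.10.9 and scipy 1.17.1.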

Additional observations from a re-analysis of the deposited data

How the results depend on the processing

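No paired analysis was possible because each line has 1 array. Counts are of the 41 factors, and a count was taken as changed past 1.5 times and a median past 0.1. For FoxO1 minus FoxO3 the number at least 2-fold higher, 3, became 1 with a floor at the 40th percentile (12.2% of all genes under that setting, as in the brackets that follow), 0 with the brightest probe set (20.8%), 1 with arrays centred on their median (16.6%) and 5 at a 1.5-fold threshold (31.3%); the median of -0.39 became -0.21 with the mean over probe sets, -0.02 with plain probe sets only and -0.64 after centring. For FoxO1 minus FoxO4 the 7 lower became 4 with the higher floor (7.17%) and 3 with the brightest probe set (16.4%), the 4 higher became 1 with the brightest probe set (20.1%) and 2 after centring (16.5%), and the median of -0.12 became 0.03 with plain probe sets and -0.34 after centring. For FoxO3 minus FoxO4 the 5 higher became 3 with the higher floor (8.99%) and 14 at 1.5-fold (27.3%), the 4 lower became 1 with the higher floor (9.19%) and 2 with the brightest probe set (18.3%), and the median of 0.10 became -0.10 with the mean over probe sets and -0.08 with plain probe sets. In the authors' deposited table the 3 higher became 1 with the brightest probe set (21.2%) and 6 with plain probe sets (20.1%), and the median of -0.65 became -0.35 with the latter. Over all genes, the FoxO1 minus FoxO3 median was 0.13 with the mean over probe sets, 0.15 with plain probe sets and -0.11 after centring. For FoxO1 minus FoxO4 it was 0.07 with plain probe sets and -0.14 after centring. For FoxO3 minus FoxO4 it was -0.08 with the mean and with plain probe sets. In the authors' deposited table it was 0.0 with plain probe sets. The causes were not tested.

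With the brightest probe set, 13 of 39 gene differences past 2-fold, over 22 genes of the factors, 4E-BP genes and kinases, had a size of at least 2-fold in either direction, and 9 changed sign. Those were FoxO1 minus FoxO4 for Eif1ad (-1.26), Eif4g3 (-0.18) and Eif2ak1 (0.37), FoxO1 minus FoxO3 for Eif3d (-0.40), Eif4ebp2 (-0.79) and Eif2ak1 (0.15), and FoxO3 minus FoxO4 for Eif3d (0.12), Eif4g3 (-0.38) and Eif4ebp2 (1.71). The 13 and the 9 overlap, since Eif1ad (-1.26) and Eif4ebp2 (1.71) changed sign and were still past 2-fold. Among the 13, the differences of Eif2b3, Eif2b4, Eif3b and Eif4a3 could not change, because each gene has 1 probe set. The rest kept size and sign: Eif2s3y, Eif2b5 for FoxO3 minus FoxO4, and Eif4e and Eif5a for FoxO1 minus FoxO3. Centring left 35 and quantile normalization 36 of the 39 past 2-fold with none reversed.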
